A study of Saccharomyces cerevisiae with 12 samples.

Results

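The proteasome genes of budding yeast (Saccharomyces cerevisiae) were followed in 12 RNA sequencing samples as a set of 33 genes, taken by systematic name from a table of 7126 features. They were chosen by what they encode: 14 subunits of the 20S core particle, 18 subunits of the 19S regulatory particle and RPN4, the transcriptional activator of the set. SEM1, a small lid subunit that also belongs to the TREX-2 complex studied here, was left out of the set and is given separately. All 33 genes passed the filter on low values and were among the 6124 features tested.

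The proteasome is the protease that degrades proteins marked with ubiquitin. Its core is a stack of alpha and beta rings with the catalytic sites on the inner beta rings, and the regulatory particle has a base of ATPases that unfold substrates and a lid that removes ubiquitin. In yeast, Rpn4 binds a short promoter word, the proteasome-associated control element, and raises transcription of the subunit genes, while the Rpn4 protein is itself short-lived and degraded by the proteasome.

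Each of 4 groups held 3 samples. As wild type served a sac3∆ strain given 13MYC-SAC3 on the plasmid pRS315, so that its only copy of SAC3, the scaffold gene of the TREX-2 mRNA export complex, was the tagged plasmid copy. The sac3∆ group was the deletion with the empty pRS315 vector, and the R288D group was the deletion with pRS315 carrying Sac3 with the R288D substitution. The titles name the 13MYC tag for wild type and not for R288D. Any difference in tag cannot be told apart from the substitution when R288D is compared with wild type. The cdk8∆ group lacked SSN3 (CDK8), the kinase gene of the Mediator kinase module, and carried the empty pRS315 vector, and its labels name no change at SAC3, so it differs from wild type in its source of SAC3 as well. The labels do not say whether it shares the parent strain of the other groups, so the kinase deletion, the SAC3 source and any strain difference cannot be told apart in the cdk8∆ comparisons. All 4 groups were untreated, grew in SDC-Leu medium and were harvested in growth at an optical density of 0.6 to 0.8. Whether replicates were separate cultures is not given in the sources used here, so p-values measure the spread between these samples. Less RNA per cell and fewer expressing cells cannot be told apart in RNA of whole cultures, and RNA levels say nothing of protein levels.

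The authors deposited RPKM, reads scaled by gene length and by library size, and the steps between low values give 16.18 to 22.44 M reads per sample. SAC3 (YDR159W) lay at 51.3 ± 2.32 RPKM (SD, n = 3) in wild type, 0.0458 ± 0.0416 in sac3∆, 63.7 ± 1.18 in R288D and 33.5 ± 0.347 in cdk8∆, and SSN3 (YPL042C) lay at 0.205 ± 0.0816 in cdk8∆ and 47.8 to 56.9 RPKM elsewhere. The 7 a-cell markers, none of them at 0, summed to 1550 to 1810 RPKM in the wild type samples and 1380 to 1520 in those of cdk8∆. In the sac3∆ samples they summed to 3360 to 4480, and for R288D the range was 3650 to 4810. The 4 alpha-cell markers summed to 25.8 to 27.7 RPKM in wild type and 48.7 to 50.3 in cdk8∆. Their sums were 61.8 to 63.9 in sac3∆ and 71.5 to 77.7 in R288D. The part of these differences in the proteasome results was not tested.

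Windows from 250 bases before to 50 bases after the annotated start of each gene, which is its coding start, were read from the RefSeq R64 genome. The word GGTGGCAAA, the proteasome-associated control element, was found on either strand in 27 of the 32 subunit windows (84.4%) and in 72 of 6001 windows over all genes (1.20%). Its matches lay 84 to 183 bases before the start, with a median of 120, and 19 of the 27 subunits carried it on their own strand and 8 on the other. The shorter core GGTGGCA, which lies within the first word and overlaps each match to it, was in 2.88% of all windows. PRE5, PUP1, RPN8, RPN10, RPN13 and RPN4 held no match to GGTGGCAAA. After those windows had been seen, GGTGGCGAA was searched as well and was found in RPN10 and RPN13 and in 27 windows in all (0.450%).

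The windows of RPN4 and of the subunits with the largest and the smallest changes are shown, 5′ to 3′ on the gene's strand, with motif matches in capitals. PRE4 (chrVI:249817-250116, minus strand) had the largest fall in cdk8∆ and carries the control element on the other strand, as TTTGCCACC. RPN13 (chrXII:965511-965810, minus strand) changed least in cdk8∆ among the subunits and carries only the GGTGGCGAA form. PRE2 (chrXVI:732099-732398, plus strand) fell most in sac3∆ and R288D, and RPN5 (chrIV:190674-190973, plus strand) changed least there, although both carry GGTGGCAAA. RPN4 (chrIV:416659-416958, minus strand) holds GAATTTTC, a match to the heat shock word GAANNTTC, 16 bases before its start.
RPN4: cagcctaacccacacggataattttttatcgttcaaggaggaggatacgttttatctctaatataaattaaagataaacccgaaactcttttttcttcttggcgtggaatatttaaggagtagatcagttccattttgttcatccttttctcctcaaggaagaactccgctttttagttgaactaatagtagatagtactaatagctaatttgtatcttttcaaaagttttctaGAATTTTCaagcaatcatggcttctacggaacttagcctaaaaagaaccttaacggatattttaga
PRE4: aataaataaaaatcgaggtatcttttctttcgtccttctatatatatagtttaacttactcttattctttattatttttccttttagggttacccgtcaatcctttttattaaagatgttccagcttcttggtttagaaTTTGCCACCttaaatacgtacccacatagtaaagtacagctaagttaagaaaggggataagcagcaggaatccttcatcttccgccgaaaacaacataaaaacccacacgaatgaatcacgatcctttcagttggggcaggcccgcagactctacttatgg
RPN13: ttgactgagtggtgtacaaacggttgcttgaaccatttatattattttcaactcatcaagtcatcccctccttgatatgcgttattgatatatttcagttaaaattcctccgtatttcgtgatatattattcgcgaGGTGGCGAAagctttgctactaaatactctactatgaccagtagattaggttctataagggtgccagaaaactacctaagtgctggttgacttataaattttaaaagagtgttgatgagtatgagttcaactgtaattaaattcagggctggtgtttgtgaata
PRE2: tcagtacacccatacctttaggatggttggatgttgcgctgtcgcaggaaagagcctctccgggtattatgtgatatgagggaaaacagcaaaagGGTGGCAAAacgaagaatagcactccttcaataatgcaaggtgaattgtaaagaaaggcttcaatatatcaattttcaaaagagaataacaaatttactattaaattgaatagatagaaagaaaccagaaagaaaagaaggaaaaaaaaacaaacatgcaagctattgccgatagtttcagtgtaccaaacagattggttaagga
RPN5: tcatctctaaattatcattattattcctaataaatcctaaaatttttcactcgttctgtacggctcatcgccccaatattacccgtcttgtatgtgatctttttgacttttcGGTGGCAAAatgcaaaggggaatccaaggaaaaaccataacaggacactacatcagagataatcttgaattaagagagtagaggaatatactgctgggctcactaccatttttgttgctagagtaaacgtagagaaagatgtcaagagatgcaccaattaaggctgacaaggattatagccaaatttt

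Words of other factors known to act on RPN4 were each found in 3 subunits or fewer. The heat shock word GAANNTTC was in RPN4, in 2 of 32 subunits (6.25%) and in 11.8% of all windows. The Yap1 word TTAGTAA was in 3 subunits (9.38%) and 7.45% of all windows. The Pdr1 and Pdr3 words TCCGCGG and TCCGTGG were in 0.783% and 1.22% of all windows; RPN11 held the first inside its coding sequence, and no member held the second. All words were searched on both strands, and none but the heat shock word was in the RPN4 window.

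In wild type the subunit genes spanned a narrow range of levels per length, and RPN4 lay at the bottom of it. The mean over the 32 subunits was 331 ± 5.86 RPKM (SD, n = 3). PRE1 (YER012W), a beta ring subunit, was highest at 553, 569 and 551 RPKM, and PRE2 (YPR103W), the beta subunit with chymotrypsin-like activity, followed at 482, 460 and 465. The values of these genes did not overlap. At the low end lay RPN11 (YFR004W), the deubiquitinating enzyme of the lid, at 175, 187 and 189 RPKM, RPN13 (YLR421C), a ubiquitin receptor, at 150, 144 and 140, and RPN4 (YDL020C) at 130, 134 and 141. RPN13 and RPN4 overlapped, and RPN11 stood above both. Between these ends, the subunits from PRE9 (YGR135W) at 425 ± 4.68 RPKM down to RPT2 (YDL007W) at 232 ± 5.18 formed a graded series in which most neighbours in rank differed by less than the larger of their SDs.

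The core was higher than the regulatory particle in every group. In wild type the 14 core genes averaged 376 ± 8.89 RPKM and the 18 regulatory genes 297 ± 2.65, a ratio of 1.26 ± 0.0153. The ratio was 1.21 ± 0.0231 in sac3∆, 1.23 ± 0.0351 in R288D and 1.19 ± 0.0153 in cdk8∆ (SD, n = 3). The sac3∆ values of 1.20 to 1.24 and the cdk8∆ values of 1.18 to 1.21 lay below the wild type values of 1.25 to 1.28, whereas R288D at 1.19 to 1.26 overlapped wild type. The SD of the log2 levels over the 32 subunits was 0.374 ± 0.00866 in wild type and 0.336, 0.335 and 0.337 in sac3∆, R288D and cdk8∆, and the values of no mutant overlapped wild type, so the genes lay slightly closer together in each mutant.

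**Figure D1:**
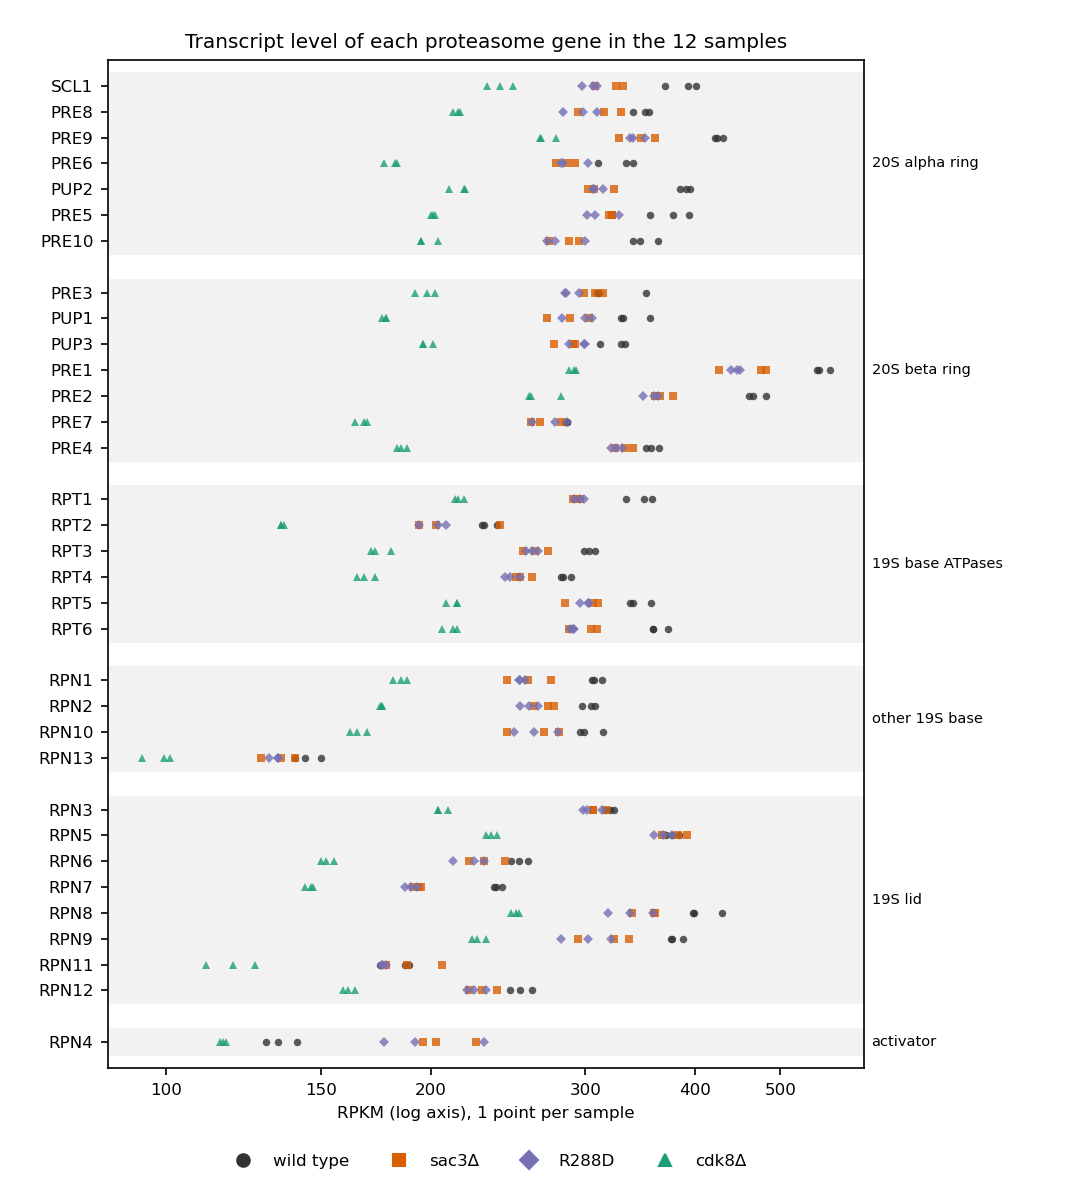
RPKM of the 33 proteasome genes in each of the 12 samples, on a log axis, with 1 point per sample coloured by group and genes ordered by subcomplex. The 3 cdk8∆ values lie lowest for every gene, and only for RPN4 do the sac3∆ and R288D values lie above wild type.

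As deposited, RPN4 was the one gene of the set that rose. It lay at 130, 134 and 141 RPKM in wild type, at 225, 196 and 203 in sac3∆, at 177, 230 and 192 in R288D and at 115, 116 and 117 in cdk8∆. Every sac3∆ and R288D value lay above every wild type value, the 2 groups overlapped each other, and every cdk8∆ value lay below wild type. The log2 change was 0.62 ± 0.08 (limma standard error) in sac3∆ and 0.56 ± 0.08 in R288D, with limma adjusted p = 7.34e-05 and 0.000184. RPN4 fell by 0.21 ± 0.08 in cdk8∆ (limma adjusted p = 0.0424), but this value became 0.17 when each library was rescaled to its recovered reads, and -0.03 under quantile normalization. Its call in cdk8∆ was also lost without any 1 of the 3 wild type or the 3 cdk8∆ samples, where the change was -0.24 to -0.18. The rises in sac3∆ and R288D passed under every alternative, at 0.53 to 0.78 and 0.48 to 0.71 over the scalings tried.

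Set against the subunit genes, RPN4 was high in all 3 mutants. RPN4 stood at 0.407 ± 0.0216 of the mean subunit level in wild type, 0.720 ± 0.0513 in sac3∆, 0.707 ± 0.0953 in R288D and 0.596 ± 0.00896 in cdk8∆ (SD, n = 3). A single factor per library leaves this ratio unchanged, and the wild type values of 0.384 to 0.427 did not overlap those of any mutant. Quantile normalization is not such a factor. With it, RPN4 changed by -0.03 and the subunit median was -0.40 in cdk8∆, against -0.21 and -0.74 as deposited. As deposited, in sac3∆ and R288D RPN4 was higher and the mean subunit level was lower. In cdk8∆ both were lower, the mean subunit level by more.

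**Figure D2:**
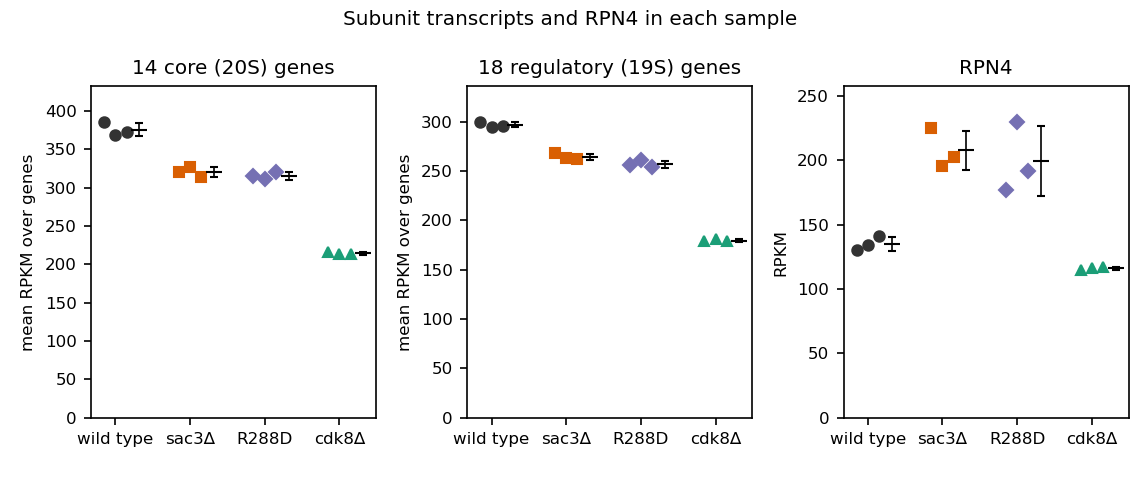
Mean RPKM over the 14 core genes, over the 18 regulatory genes, and RPKM of RPN4, with 1 point per sample and the group mean and SD beside the points, on axes from 0. Core and regulatory means are highest in wild type and lowest in cdk8∆, and RPN4 is highest in sac3∆ and R288D.

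The comparison of cdk8∆ with wild type sets a strain without the Mediator kinase gene beside one with SAC3 on a plasmid. It cannot single out the kinase. All 33 genes fell, in a table where 30.6% of features fell and 31.5% rose by limma at an adjusted p under 0.05. The median change of the 32 subunits was -0.74, against 0.01 over all features tested, and 6.53% of features were as low as that median or lower. All 33 genes had every cdk8∆ value below every wild type value, against 35.9% of features. The mean subunit level was 331 ± 5.86 RPKM in wild type and 195 ± 1.00 in cdk8∆ (SD, n = 3). Of the 33 falls, 32 passed after quantile normalization and 32 with libraries rescaled to their recovered reads, and in both cases RPN4 was the exception.

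Within the core, the alpha ring, which gates entry to the chamber, fell by a median of 0.82 on the log2 scale. PRE5 (YMR314W) lay at 394, 355 and 377 RPKM in wild type and 200, 201 and 202 in cdk8∆, a change of -0.90 ± 0.05. PRE9 (YGR135W), the one core subunit yeast can live without, lay at 430, 421 and 424 RPKM and at 278, 266 and 267, a change of -0.65 ± 0.04 that was the smallest of the core. The groups were apart in both genes. The other 5 alpha genes, SCL1 (YGL011C), PRE8 (YML092C), PRE6 (YOL038W), PUP2 (YGR253C) and PRE10 (YOR362C), changed by -0.69, -0.70, -0.86, -0.85 and -0.82, and limma adjusted p was 2.39e-07 or lower for all 7.

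The beta ring fell by a median of 0.81. PRE4 (YFR050C), whose window is printed above, lay at 364, 356 and 352 RPKM in wild type, 324, 340 and 333 in sac3∆, 321, 330 and 325 in R288D and 188, 183 and 185 in cdk8∆. PRE1 lay at 553, 569 and 551 RPKM in wild type and 287, 291 and 293 in cdk8∆. Both fell by 0.94 in cdk8∆, with limma adjusted p = 2.22e-09 and 1.73e-08. Of the 3 catalytic subunits, PUP1 (YOR157C), with trypsin-like activity, fell by 0.93 ± 0.05 from 338 ± 14.5 to 177 ± 1.09 RPKM, PRE2 fell by 0.81 ± 0.04 and PRE3 (YJL001W), with caspase-like activity, fell by 0.71 ± 0.05. PUP3 (YER094C) changed by -0.71 and PRE7 (YBL041W) by -0.77, and differences between the beta genes were not tested.

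The base and lid fell by slightly less. The 6 ATPase genes RPT1 (YKL145W), RPT2, RPT3 (YDR394W), RPT4 (YOR259C), RPT5 (YOR117W) and RPT6 (YGL048C) changed by -0.69, -0.78, -0.79, -0.75, -0.70 and -0.78, and RPT2 as an example lay at 230, 229 and 238 RPKM in wild type and 135, 136 and 135 in cdk8∆. The scaffolds RPN1 (YHR027C) and RPN2 (YIL075C) changed by -0.74 and -0.78. The ubiquitin receptors differed most: RPN10 (YHR200W) changed by -0.87 ± 0.06 and RPN13 by -0.55 ± 0.05, from 150, 144 and 140 RPKM to 93.9, 101 and 99.3. The 8 lid genes lay between -0.74 for RPN9 (YDR427W) and -0.63 for RPN11 and RPN3 (YER021W), with a median of -0.69. RPN11, at 111, 126 and 119 RPKM in cdk8∆, stayed apart from its wild type values. The median change was -0.82 over the 14 core genes and -0.72 over the 18 regulatory genes, and the difference between them was not tested.

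The comparisons of sac3∆ and R288D with wild type ask how these transcripts differ without Sac3, or with the R288D copy in place of the tagged one. In sac3∆, 25 subunits fell, 7 did not pass and RPN4 rose, in a table where 24.1% of features fell and 27.4% rose. In R288D, 27 subunits fell, 5 did not pass and RPN4 rose, where 24.4% of features fell and 26.3% rose. The falls were small, with medians of -0.20 and -0.21 over the 32 subunits against 0.04 and 0.02 over all features, and the mean subunit level was 289 ± 4.04 RPKM in sac3∆ and 283 ± 0.577 in R288D against 331 ± 5.86 in wild type (SD, n = 3). Every mutant value lay below every wild type value for 27 genes in sac3∆, against 27.4% of features, and for 29 in R288D, against 26.2%. Both comparisons share the wild type samples.

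These falls depended on how libraries are scaled. As deposited, the subunit medians were near those of other genes of like abundance. A larger share of subunits fell, 25 of 32 in sac3∆ and 27 of 32 in R288D. Falls passed for 3 subunits in sac3∆ and 7 in R288D after quantile normalization, and for 6 and 10 with libraries rescaled to their recovered reads, and up to 4 subunits then rose. Of the 730 other features within the subunits' range of mean level, 127 to 438 RPKM, 53.7% fell in sac3∆ and 52.7% in R288D, with a median of -0.21 in both. That range was chosen after the data were seen. In cdk8∆ the same features had a median of -0.27 and 61.0% fell, so there the subunit median of -0.74 lay well below theirs.

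PRE2 showed the largest fall in both strains. It lay at 482, 460 and 465 RPKM in wild type, 377, 365 and 360 in sac3∆, 363, 349 and 359 in R288D and 281, 260 and 259 in cdk8∆, and the mutant values lay apart from wild type in every case. With limma the sac3∆ change was -0.35 ± 0.04 (adjusted p = 4.66e-05), and that of R288D was -0.39 ± 0.04 (adjusted p = 2.14e-05). RPN5 (YDL147W), a lid subunit, lay at 371, 383 and 376 RPKM in wild type, 391, 382 and 367 in sac3∆, 359, 376 and 368 in R288D and 234, 238 and 231 in cdk8∆. Its first 3 groups overlapped, with changes of 0.01 ± 0.04 and -0.04 ± 0.04, whereas it fell by 0.68 ± 0.04 in cdk8∆. RPN5 was called higher in both Sac3 mutants under quantile normalization (0.21 and 0.16) and with the scaling undone (0.17 and 0.12), and lower in R288D with equal medians (-0.11). Both genes carry the control element shown above, and the difference between their changes was not tested.

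By subcomplex, the alpha ring was the one whose every gene fell in both strains. All 7 alpha genes fell in sac3∆ (median -0.27, from -0.33 for PUP2 to -0.16 for PRE8) and in R288D (median -0.31, from -0.35 for SCL1 to -0.18 for PRE6). In the beta ring 5 genes fell in sac3∆ and 6 in R288D; PRE7 passed in neither (-0.09 and -0.06) and PRE3 only in R288D (-0.17, against -0.08 in sac3∆). The ATPases fell in 5 of 6 and 6 of 6 cases, with RPT2 at -0.14 ± 0.07 not passing in sac3∆, where its values of 203, 194 and 240 RPKM overlapped wild type. Among the other base genes RPN1, RPN2 and RPN10 fell in both strains, and RPN13 at -0.11 and -0.12 passed in neither (limma adjusted p = 0.0711 and 0.0518). In the lid RPN6 (YDL097C), RPN7 (YPR108W), RPN8 (YOR261C), RPN9 and RPN12 (YFR052W) fell in both, led by RPN7 at -0.30 and -0.32 and RPN9 at -0.26 and -0.33. RPN3, RPN5 and RPN11 passed in neither, and RPN11 stood at 0.05 ± 0.06 and -0.06 ± 0.06. Of the falls named here, those of PRE8, PRE4, RPT4, RPN2, RPN6 and RPN12 in sac3∆, and of PRE3, PUP3, PRE4, RPT2, RPN6 and RPN12 in R288D, changed sign under at least 1 other scaling, to between 0.00 and 0.10.

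SEM1 (YDR363W-A), the lid subunit shared with TREX-2, fell in all 3 mutants as deposited. It lay at 252 ± 12.7 RPKM in wild type, 215 ± 7.98 in sac3∆, 214 ± 19.1 in R288D and 176 ± 14.1 in cdk8∆ (SD, n = 3). Its changes of -0.22 ± 0.07, -0.23 ± 0.07 and -0.52 ± 0.07 passed in all 3 (limma adjusted p = 0.0228, 0.0185 and 7.14e-05), and the last was smaller than that of each of the 32 subunits. The sac3∆ call was lost without replicate 1 or 3 of wild type or of sac3∆ (limma adjusted p from 0.0518 to 0.0814). That of R288D was lost without wild type replicate 1 or 3 or R288D replicate 2 (limma adjusted p from 0.0525 to 0.0688). The cdk8∆ call of SEM1 held without any 1 sample. With the scaling undone its changes were -0.06, -0.08 and -0.13, and none passed (lowest limma adjusted p = 0.111), and after quantile normalization only that of cdk8∆ did, at -0.18 (limma adjusted p = 0.0489).

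**Figure D3:**
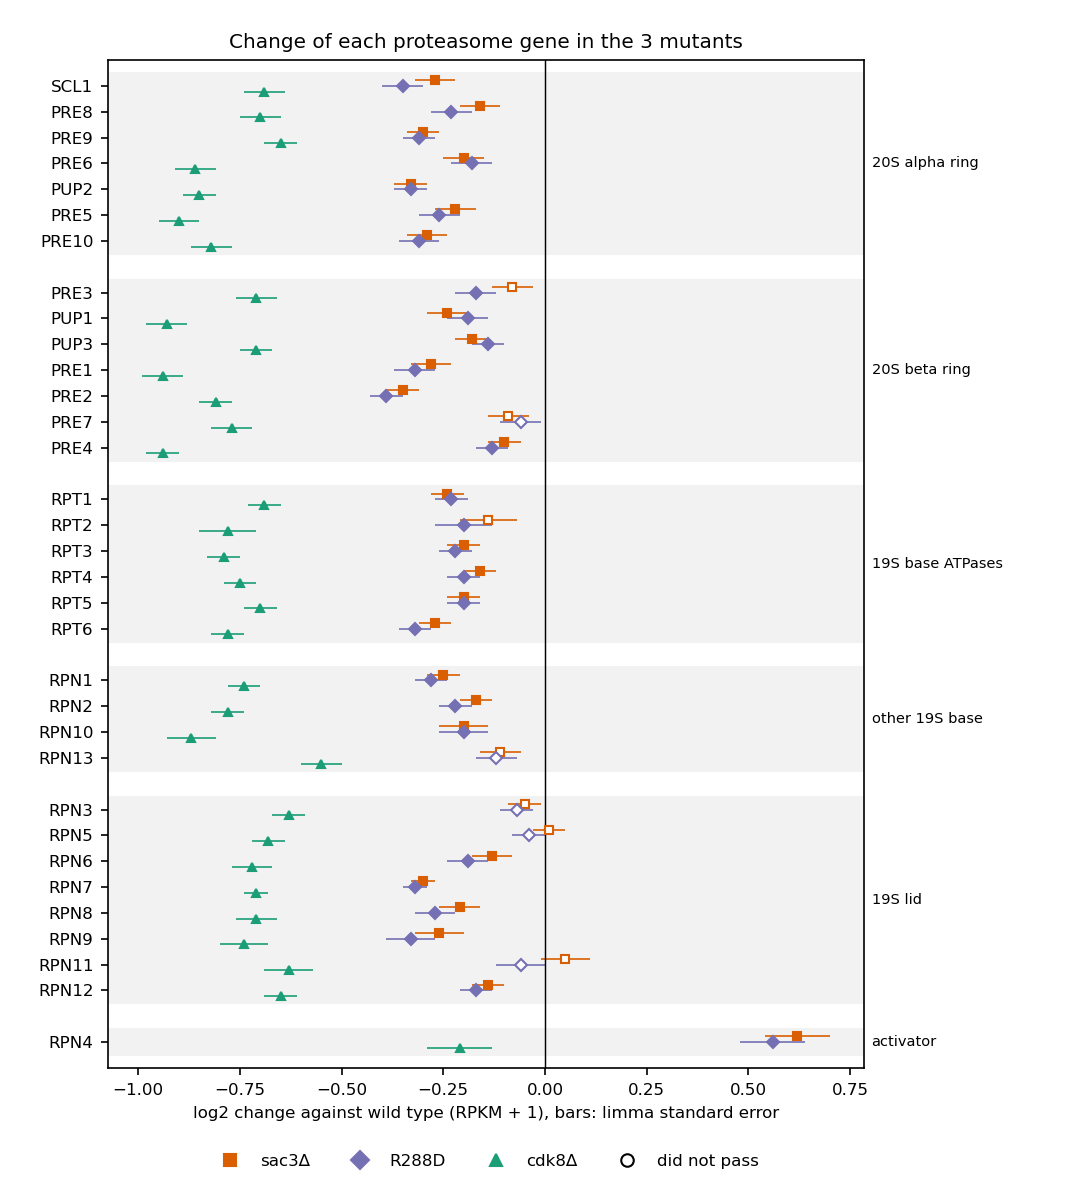
Log2 change of RPKM plus 1 against wild type for each of the 33 genes in sac3∆, R288D and cdk8∆, with bars for the limma standard error and filled points where the limma adjusted p is under 0.05. The cdk8∆ changes of the subunits lie between -0.94 and -0.55, the sac3∆ and R288D changes between -0.39 and 0.05, and RPN4 stands apart at 0.62, 0.56 and -0.21; the last becomes 0.17, and the small sac3∆ or R288D falls of 9 subunits change sign, under another scaling.

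Library scaling moved the level of the whole table. A single factor per library shifts all features nearly alike, so it could hardly move the position of the subunits among them. Quantile normalization could move that position, and did. The scaled library sizes behind the deposited RPKM divided by the recovered reads came to 0.864 to 0.892 for wild type and 1.136 to 1.176 for cdk8∆. With that scaling undone, the median of all features became 0.19 in sac3∆, 0.16 in R288D and 0.38 in cdk8∆, and the subunit medians -0.04, -0.06 and -0.36. Relative to all features the subunits then lay at -0.23, -0.22 and -0.74, against -0.24, -0.23 and -0.75 as deposited. Quantile normalization, which sets the whole distribution of levels equal, brought them to 0.00, -0.02 and -0.40 relative to all features. Of all calls in the table, 53.3% in sac3∆, 51.8% in R288D and 50.7% in cdk8∆ were rises as deposited, and 77.0%, 75.8% and 85.7% with the scaling undone. With the medians of all features set equal, 37.8% in sac3∆ and 38.8% in R288D were rises, and 30 and 31 members fell.

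**Figure D4:**
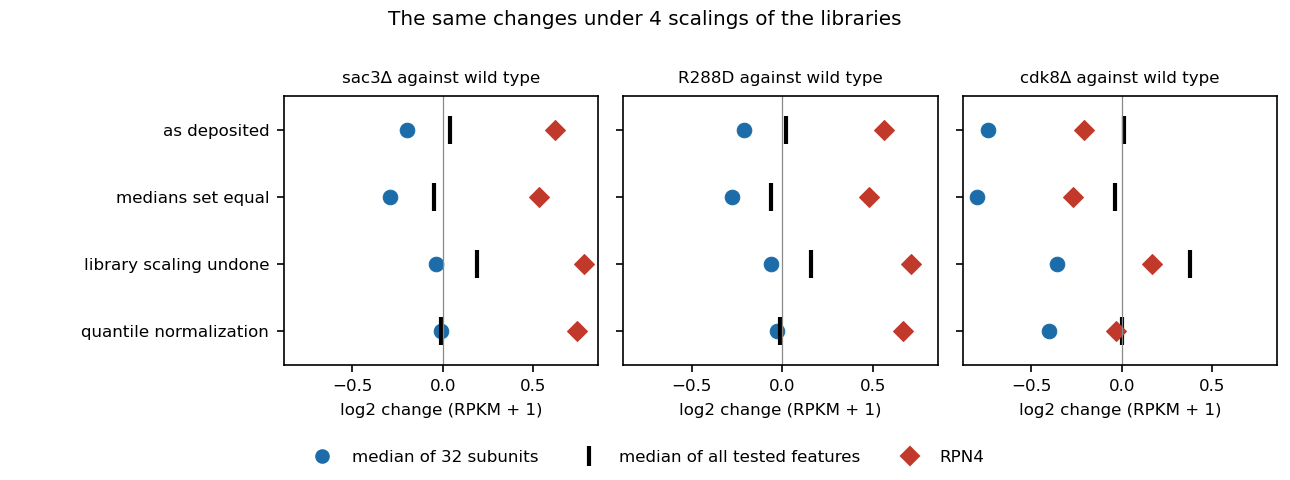
Median log2 change of the 32 subunits and of all features tested, and the change of RPN4, in each comparison with wild type under the deposited and 3 other scalings. The subunit median stays at -0.36 or below in cdk8∆, the sac3∆ and R288D medians reach -0.01 and -0.03, and RPN4 in cdk8∆ crosses from -0.21 to 0.17.

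The mutants were also compared with each other. Between R288D and sac3∆ no member was called by limma at an adjusted p under 0.05, and none had an unadjusted p under 0.05, in a table where 1.05% of features rose and 0.327% fell. The 95% intervals of the 32 subunit differences lay within -0.24 and 0.15, and RPN4 differed by -0.06 with an interval of -0.25 to 0.12. Against sac3∆, all 33 members fell in cdk8∆, where 32.9% of features fell and 31.2% rose, from -0.84 for PRE4 to -0.35 for PRE9, with RPN4 at -0.83 ± 0.08. Against R288D, all 33 fell in cdk8∆, where 32.3% of features fell and 31.4% rose, from -0.81 for PRE4 to -0.34 for PRE9, with RPN4 at -0.77 ± 0.08. The subunit medians were -0.56 and -0.54, and in both comparisons at least 32 members passed under every scaling, so cdk8∆ was below both Sac3 mutants and not only below wild type.

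Subunits were also split by the control element, and the difference between them was not tested. In cdk8∆ the 27 with GGTGGCAAA had a median of -0.74 and the 5 without, PRE5, PUP1, RPN8, RPN10 and RPN13, one of -0.87, with a range from -0.93 for PUP1 to -0.55 for RPN13. In sac3∆ the medians were -0.20 and -0.21, and in R288D -0.22 and -0.20. Among the 44 tested genes outside the set whose windows hold the word, 28 fell and 6 rose in cdk8∆, with a median of -0.34, 15 fell and 7 rose in sac3∆ (median -0.02) and 16 fell and 7 rose in R288D (median -0.09). Over all features 30.6% fell and 31.5% rose in cdk8∆, 24.1% and 27.4% in sac3∆, and 24.4% and 26.3% in R288D. Some of the 44 are neighbours on the other strand whose windows hold the same copy as a member's, such as GCD1 beside RPT4 and NOP14 beside RPN5. The 44 are therefore not all separate from the members' promoters. A match is a description of these letters and not a site shown to be bound.

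Of the members, 19 have a neighbour on the other strand whose start lies within 1000 bases of theirs, and no neighbour is itself a member. Of these neighbours 8 fell and 3 rose in cdk8∆, with a median of -0.15, and 5 fell and 5 rose in sac3∆ and 5 fell and 4 rose in R288D, with medians of 0.06 and 0.03. Over all features 30.6% fell and 31.5% rose in cdk8∆, 24.1% and 27.4% in sac3∆, and 24.4% and 26.3% in R288D. The neighbour counts in the Sac3 mutants lay near those shares. The PRE2 neighbour RPL11A, a ribosomal protein gene, fell by 0.59, 0.65 and 0.54 in sac3∆, R288D and cdk8∆, the last becoming 0.08 under quantile normalization. The RPT4 neighbour GCD1, of the translation factor eIF2B, and the RPN5 neighbour NOP14, of ribosome assembly, fell in cdk8∆ by 0.73 and 0.52, and the PRE7 neighbour FUI1, a uridine permease, rose by 0.52 in R288D. Members fell in cdk8∆ beside neighbours that fell, rose or did not pass.

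Proteasome assembly factors and associated proteins did not move as a block. Of 18 genes, 9 fell and 3 rose in cdk8∆ (median -0.15), 6 fell in sac3∆ and 8 fell and 1 rose in R288D. For this list and those below, the shares over all features were 30.6% falls and 31.5% rises in cdk8∆. In sac3∆ they were 24.1% and 27.4%, and in R288D 24.4% and 26.3%. ECM29, which tethers core and regulatory particle, lay at 121 ± 3.86 RPKM in wild type and 65.9 ± 0.0131 in cdk8∆ (SD, n = 3) and its change was -0.40 in sac3∆, -0.31 in R288D and -0.87 in cdk8∆ by log2. UMP1, the maturation factor of the core, fell by 0.83 in cdk8∆, and BLM10, an alternative activator, fell by 0.54. UBP6, the deubiquitinating enzyme bound to the base, fell by 0.45 in cdk8∆, and NAS6, a base assembly chaperone, fell by 0.24 in sac3∆ and stood at 0.02 in cdk8∆. SPG5, linked to the proteasome in stationary phase, rose by 1.08 in cdk8∆. With the library scaling undone 12 of the 18 rose in cdk8∆ and 4 fell, so the count for this list depends on the scaling, unlike that of the subunits.

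Genes for ubiquitin and its activation fell in all 3 mutants. RPL40A, RPL40B and RPS31, which encode ubiquitin fused to ribosomal proteins, and UBA1, the activating enzyme, fell in sac3∆ (-0.71, -0.91, -0.80 and -0.67), R288D (-0.74, -0.87, -0.76 and -0.56) and cdk8∆ (-0.66, -0.65, -0.57 and -0.48). After quantile normalization none of the 5 genes passed in cdk8∆, and RPL40A and RPL40B stood at 0.02 and 0.08. UBI4, the stress-induced polyubiquitin gene, lay at 661 ± 26.5 RPKM in wild type, 666 ± 29.8 in sac3∆, 698 ± 32.1 in R288D and 409 ± 9.46 in cdk8∆ (SD, n = 3), and it fell by 0.69 in cdk8∆ and passed in neither Sac3 mutant.

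Enzymes that attach and remove ubiquitin moved in both directions. Of 13 conjugating enzyme genes 5 fell in each mutant, and 1, 0 and 2 rose in sac3∆, R288D and cdk8∆; in cdk8∆ these became 0 falls and 10 rises with the scaling undone, and 0 and 5 after quantile normalization. UBC4 fell by 0.36, 0.25 and 0.44, though quantile normalization turned the R288D and cdk8∆ values to 0.03 and 0.19. MMS2, partner of Ubc13, fell by 0.47 and 0.52 in the Sac3 mutants, and UBC11 rose by 1.86 in cdk8∆. Of 13 ligase genes 4 rose and 2 fell in sac3∆, 4 rose in R288D, and 3 rose and 7 fell in cdk8∆, where SSM4, a ligase of the endoplasmic reticulum, fell by 0.56 and UBR1, of the N-degron pathway, by 0.38, a value of 0.00 with the scaling undone. With it undone 8 ligase genes rose and 2 fell in cdk8∆, and 10 rose and none fell in sac3∆, so the balance of this list turns with the scaling. Of 17 deubiquitinating enzyme genes 8 rose in each mutant and 4, 3 and 3 fell, with UBP10 at 0.57, 0.67 and 0.00 and YUH1 at -0.69, -0.58 and 0.23, in a table where 26.3 to 31.5% of features rose. With the scaling undone these counts were 11 rises and 1 fall, 10 and 1, and 15 and 0, and after quantile normalization 4 and 3, 5 and 2, and 5 and 3.

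Receptors that deliver ubiquitinated proteins mostly fell in cdk8∆. Of 12 genes of shuttle receptors and the Cdc48 segregase, 9 fell and 1 rose in cdk8∆ (median -0.50), and 5 fell in each Sac3 mutant (median -0.09 in both). With the library scaling undone 6 fell and 3 rose in cdk8∆. RAD23, a shuttle receptor, lay at 183 ± 4.13 RPKM in wild type and 109 ± 0.534 in cdk8∆ (SD, n = 3) and fell by 0.74, and SHP1 and UFD1, cofactors of Cdc48, fell by 0.70 and 0.64. CDC48 itself lay at 827 ± 17.8, 598 ± 13.1, 637 ± 19.1 and 536 ± 4.44 RPKM in wild type, sac3∆, R288D and cdk8∆ and fell in all 3, although its change in cdk8∆ was 0.06 after quantile normalization.

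Genes that act on RPN4 were described as well. HSF1, PDR1, PDR3 and YAP1 encode factors known to bind the RPN4 promoter, and UBR2, MUB1 and RAD6 act in turnover of the Rpn4 protein; the last 3 are also in the lists above. In sac3∆ and R288D 6 of the 7 rose and RAD6 fell, and in cdk8∆ 1 rose and 5 fell. Over all features 26.3 to 31.5% rose and 24.1 to 30.6% fell in these comparisons. HSF1 lay at 62.5 ± 1.64 RPKM in wild type, 92.1 ± 3.10 in sac3∆, 88.6 ± 1.76 in R288D and 50.4 ± 1.38 in cdk8∆ (SD, n = 3), with changes of 0.55, 0.50 and -0.31. YAP1 changed by 0.44, 0.32 and -0.60, and PDR1 by 0.22, 0.23 and -0.34. PDR3 rose in all 3, by 0.55, 0.49 and 0.41, and MUB1 changed by 0.23, 0.20 and -0.55. UBR2 lay at 27.1 RPKM in wild type, 33.2 in sac3∆, 31.7 in R288D and 20.4 in cdk8∆. As deposited, HSF1, YAP1, PDR1, MUB1 and UBR2 thus had the same order of signs as RPN4. Promoter-binding factors and turnover genes were both among them. With the scaling undone the cdk8∆ values of HSF1 and PDR1 were 0.07 and 0.03, and that of RPN4 itself was 0.17.

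Transporters linked to Pdr1 and Pdr3 included the largest single fall of the lists outside the chaperones. PDR5, the main multidrug pump, lay at 150 ± 9.51 RPKM in wild type, 150 ± 14.8 in sac3∆, 140 ± 4.75 in R288D and 51.0 ± 2.81 in cdk8∆ (SD, n = 3), and it fell by 1.54 in cdk8∆ with limma adjusted p = 8.13e-09. Of the 7 transporter genes 4 fell and 2 rose in cdk8∆, 3 rose and 1 fell in sac3∆, and 3 rose in R288D. FLR1 rose in all 3 mutants, by 0.44, 0.44 and 0.59, and PDR15 rose in the Sac3 mutants by 0.85 and 0.71.

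Other folding and large protein complexes set the subunits in context. Of 19 cytosolic chaperone genes 17 fell in cdk8∆ (median -1.01), 13 fell and 2 rose in sac3∆ (median -0.36), and 12 fell and 2 rose in R288D (median -0.29). SSA4, an Hsp70 gene, and BTN2, a sorting factor for misfolded protein, changed by -1.58 and -2.10 in cdk8∆, and HSP26, a small heat shock gene, rose by 1.25 and 1.82 in the Sac3 mutants and fell by 2.07 in cdk8∆. All 8 genes of the CCT chaperonin fell in cdk8∆ (median -0.71) and 7 in each Sac3 mutant (medians -0.39 and -0.38). Of 12 RNA polymerase II subunit genes 8 fell in cdk8∆ (median -0.31), 5 in sac3∆ (median -0.13) and 4 in R288D (median -0.08). With the scaling undone none of the 12 fell and 3 rose in cdk8∆ (median 0.07), and 1 fell and 3 rose in sac3∆. Quantile normalization turned HSC82 and SSE1 in cdk8∆ to 0.16 and 0.25 and SSA1 in the Sac3 mutants to 0.04 and 0.11, and the CCT genes kept a median of -0.45 in cdk8∆. The proteasome subunits in cdk8∆ thus had a median change near that of CCT, and no test between lists was made.

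**Figure D5:**
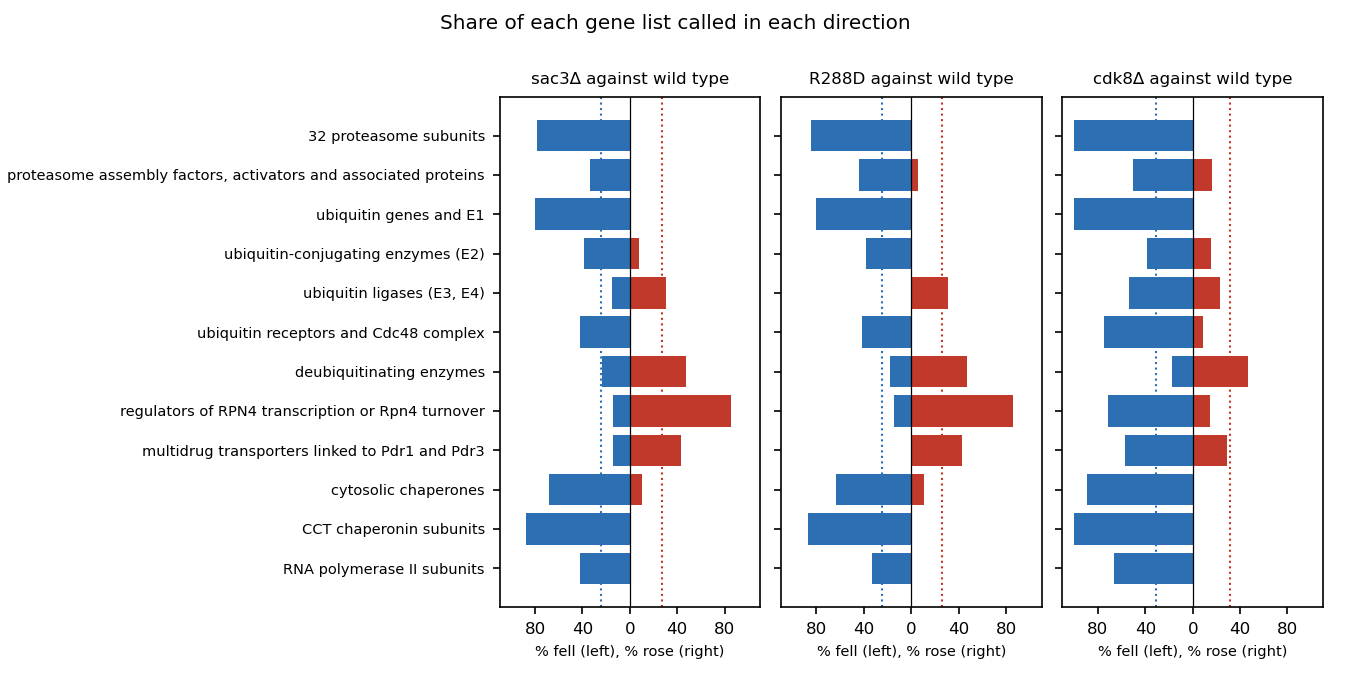
Percent of the tested genes of each list that rose (to the right) or fell (to the left) in each comparison with wild type, by limma at an adjusted p under 0.05, with dotted lines at the share of all features tested. All 32 subunits fell in cdk8∆, as did all CCT and ubiquitin genes, though the latter lose every cdk8∆ call under quantile normalization, and as deposited more deubiquitinating enzyme genes rose than fell in each mutant, with 5 of each in R288D once the medians of all features were set equal.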

How the data were processed

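RNA of 12 yeast samples was sequenced, in 4 groups of 3 taken from the sample titles. The authors deposited RPKM values for 7126 features. The build R64 and the tools limma, edgeR, HTSeq 0.5.4p3 and TopHat2 2.0.9, with R 3.0.1, are listed in the submitters' processing notes without their roles, and the strand setting of the counting is not given in the sources used here. As read from the values, 99.34 to 99.67% of low values in the deposited RPKM were whole reads within 0.1 read, and the libraries had been scaled. Those steps gave each library's reads in the 6162 features with an R64 length; the other 964 had none. No member overlaps another RefSeq feature. No count test was run.

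The test was limma 3.58.1 in R 4.3.3 on log2(RPKM + 1) with a mean trend, over all 12 samples with 1 mean per group and 8 residual degrees of freedom. It was two-sided, adjusted by Benjamini-Hochberg over 6124 features, those averaging 1 RPKM or more over the 12 samples, and called at an adjusted p under 0.05. "Rose" and "fell" mean called, and fold changes of low genes are understated by the pseudocount. The fit was checked on simulated data. Python 3.11.15, pandas 2.3.3, numpy 2.4.6 and matplotlib 3.10.9 made the summaries and plots.

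The members and the 13 gene lists were chosen with earlier results of these data known. All 33 members, SAC3, SSN3 and SEM1 are named, with up to 4 called genes per list and comparison with wild type by lowest adjusted p, and divergent neighbours called at a log2 change of at least 0.5 in size. Other genes named were chosen after their values were seen, as were the abundance range, the GGTGGCGAA search and the rescaling of the lists. Alternatives were pseudocounts of 0.1 and 5, no filter and a filter at 10 RPKM, equal medians, quantile normalization, library scaling undone, the compared groups alone, no mean trend, a replicate block, and leaving out each of the 12 samples.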

Additional observations from a re-analysis of the deposited data

How the results depend on the processing

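Of 4356 values recomputed for the members, 4159 kept their direction and their side of the threshold, 105 kept direction and lost the call, 19 kept direction and gained one (9 of them with equal medians), 24 changed sign with a call on at least 1 side, and 49 changed sign with no call on either; the cause was not tested. Some settings could not change a direction, because they leave the group means of a comparison as they were. These were the filters, no mean trend, the replicate block, the compared groups alone and the loss of a sample from a group not compared. Only the call could change there. After quantile normalization 5 members rose and 3 fell in sac3∆, and 2 rose and 7 fell in R288D. With the library scaling undone these were 4 and 6, and 2 and 10. The sac3∆ values that changed sign became, under quantile normalization and with scaling undone, 0.04 and 0.01 for PRE8, 0.10 and 0.06 for PRE4, 0.02 and 0.00 for RPT4, 0.07 and 0.03 for RPN6, 0.06 and 0.02 for RPN12, 0.13 and 0.12 for RPN3, and under the first alone 0.01 for RPN2. Those of R288D became 0.04 and 0.02 for PUP3 and 0.06 and 0.02 for PRE4, 0.16 and 0.12 for RPN5, and under the first alone 0.00 for PRE3, 0.01 for RPT2, 0.03 for RPN6 and 0.04 for RPN12. RPN4 in cdk8∆ became 0.17 with scaling undone, and its call was also lost with no filter (limma adjusted p = 0.0692), no mean trend (limma adjusted p = 0.0559), quantile normalization (limma adjusted p = 0.766), without sac3∆ replicate 3 and without R288D replicate 3. Leaving out 1 sample, the falls numbered 21 to 25 for sac3∆, 25 to 28 for R288D and 32 to 33 for cdk8∆. With the replicate number as a block, 24 members fell in sac3∆, 27 in R288D and 32 in cdk8∆ (RPN4 there at limma adjusted p = 0.0629). Samples with the same number did not deviate together (r from -0.29 to 0.16, median -0.03, over 18 pairs), so the numbers do not pair them. Over the whole table, R288D against sac3∆ gave 84 calls, 17 with the compared groups alone, 468 without R288D replicate 2 and 53 without sac3∆ replicate 1, and no member was called in any of these. With 3 samples a group and 16.18 to 22.44 M reads, changes of the size of the sac3∆ and R288D falls lie within the range that scaling moves.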
